A study of Homo sapiens with 24 samples.

Results

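The response to a HIP1 construct was compared between 2 human prostate cell lines, as the effect in LNCaP (HIP1-labelled minus vector arrays) minus the same effect in PNT1a, probe by probe. The 4 groups hold 6 arrays each. LNCaP cells, a prostate cancer line, were transfected transiently with HIP1 or with an empty vector and taken 4 days later. PNT1a cells, immortalised from prostate epithelium, had HIP1 or the empty vector stably, with both stable lines held in medium with G418 at 0.8 mg/ml. All 4 groups grew in RPMI with 10% FBS, and the sources used here do not give the number of clones behind the stable lines. Cell line, mode of transfection, time and drug change together between the pairs of groups, so a difference between the lines cannot be told apart from a difference between transient and stable transfection. A probe entered when its log2 intensity lay above 6.97, a level set 3 SDs above the background mode of 6.48, on at least 6 of the 12 arrays of LNCaP and on at least 6 of the 12 arrays of PNT1a. This kept 10299 of the 48803 probes, which cover 7417 of the 18852 named genes of the table. Another 1715 probes passed in LNCaP only and 1922 in PNT1a only, and these are not in the comparison. The last probe admitted was that of CLUAP1 (sixth highest value 6.97001) and the first left out that of ZNF667 (6.96991).

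HIP1 is an adaptor protein of endocytosis that binds clathrin and inositol lipids and links coated pits to actin, and the series title ties it to prostate cancer through STAT3, a transcription factor of cytokine signalling. LNCaP cells make androgen-regulated secretory proteins of the luminal layer, whereas PNT1a cells come from normal prostate epithelium and lack much of that programme. A contrast of this kind asks where a construct had an effect in a line that it did not have, or had with the other sign, in the other line. A gene that moved equally in both lines gives a difference of 0, and a gene moved in LNCaP alone gives the LNCaP effect itself.

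Marker genes told the lines apart. All 8 luminal markers with a probe, among them KLK2, KLK3 and TMPRSS2, lay above the level in LNCaP, and 3 of the 8 (KRT8, KRT18 and STEAP2) did so in PNT1a. The keratins KRT5 and KRT14 of basal cells lay below the level in both lines, while CAV1, CD44 and ANXA1 were above it in PNT1a alone and VIM in both. Of 11 fibroblast markers 2 were above the level in LNCaP and 4 in PNT1a, of 10 leukocyte markers 0 in LNCaP and 2 in PNT1a, of 7 endothelial and red-cell markers 1 in each line, and of 8 neuroendocrine markers 1 in LNCaP and 3 in PNT1a. The PNT1a arrays numbered 6 stood apart from the rest, with mean correlations to their own group of 0.919 (HIP1-labelled) and 0.946 (vector). All LNCaP arrays reached 0.990 or more by this measure, and the remaining PNT1a arrays 0.973 or more. Because RNA came from bulk cultures, fewer cells of a kind and less RNA per cell cannot be told apart in any value given here.

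The HIP1 probe did not separate the groups of either line, so a group is named here by its label and not by its HIP1 level. HIP1 lay at 7.11 to 7.52 (median 7.25) in LNCaP HIP1-labelled arrays and 7.19 to 7.59 (median 7.44) in LNCaP vector arrays. In PNT1a it lay at 7.10 to 8.09 (median 7.90) in HIP1-labelled and 7.30 to 7.86 (median 7.74) in vector arrays. The groups overlapped in both lines, and the difference between lines was -0.21 (95% interval -0.58 to 0.16, limma adjusted p = 0.452, exact permutation p = 0.271). The lowest of the PNT1a HIP1-labelled values was that of array 6, and without this array the difference was -0.35 (limma adjusted p = 0.0452). The sources used here do not say whether the probe matches the construct. STAT3 gave a difference of 0.05 (95% interval -0.44 to 0.53, limma adjusted p = 0.924). GDF15, a distant member of the TGF-beta family that cells secrete under stress, was called in the same direction in both lines, by 0.81 in LNCaP and 2.22 in PNT1a, a difference of -1.41 (limma adjusted p = 0.000544, exact permutation p = 0.065). The permutation p is for no GDF15 effect in either line, so it does not test for equal effects. The LNCaP values of GDF15 reached 14.71 on a table whose highest value is 15.52.

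The construct effect differed between the lines for 2288 of the 10299 probes (22.2%) at an adjusted p of 0.05. The LNCaP effect lay above that of PNT1a for 1068 probes (10.4%) and below it for 1220 (11.8%), and 250 of the called differences were at least 1 on the log2 scale. Within the lines, 834 probes were called in LNCaP (8.10%, with 339 higher and 495 lower in HIP1-labelled arrays) and 2623 in PNT1a (25.5%, with 1347 higher and 1276 lower). The sizes followed the same order, with a median absolute effect of 0.082 in LNCaP and 0.190 in PNT1a, while the median within-group SD was also smaller in LNCaP (0.118 in HIP1-labelled and 0.124 in vector arrays) than in PNT1a (0.209 in HIP1-labelled and 0.183 in vector arrays). Of the 258 probes called in both lines, 158 moved the same way and 100 moved oppositely (0.971% of the probes tested). Across all probes, which are not independent, the effects of the lines had a Pearson correlation of 0.11 and a Spearman correlation of 0.09. Without both PNT1a arrays numbered 6, 3631 probes were called.

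**Figure D1:**
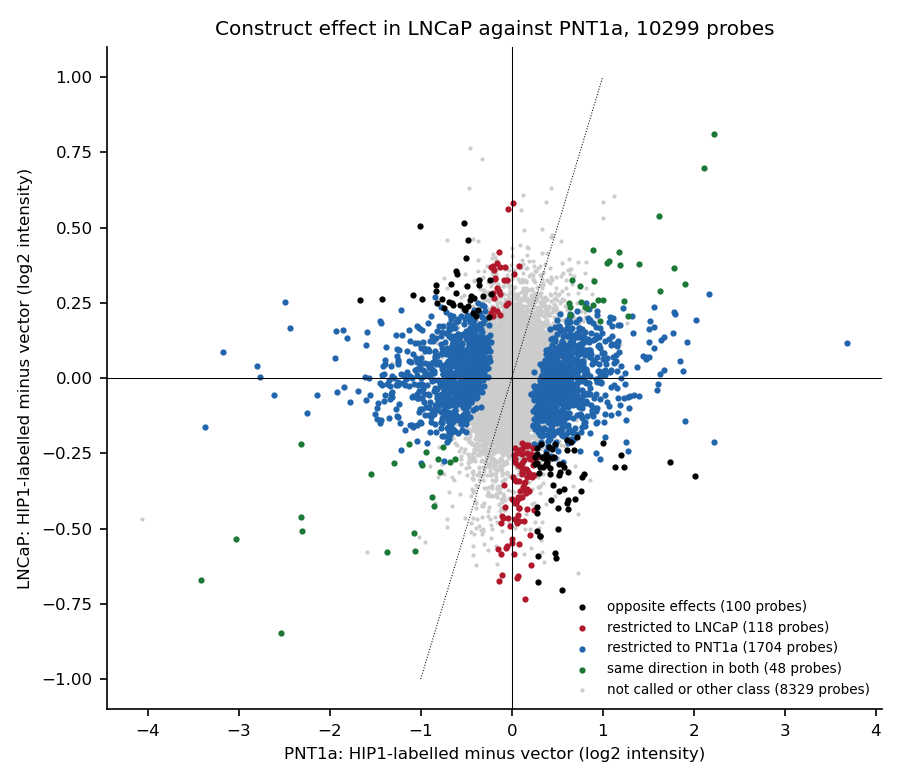
Construct effect (log2, HIP1-labelled minus vector) in LNCaP on the vertical axis against PNT1a on the horizontal axis, which spans a wider range, with 1 point per tested probe coloured by class and a dotted line where both effects are equal. The 100 probes with opposite effects (black) lie at the upper left and lower right, and the PNT1a-restricted probes (blue) spread along the horizontal axis.

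Counted by the most significant probe of each gene, 91 genes had opposite effects called in both lines, 33 higher in LNCaP with PNT1a lower and 58 the other way. Another 104 genes were restricted to LNCaP and 1403 to PNT1a. Restricted means that the other line was not called and its 95% interval lay within 0.5 of zero on the log2 scale. The median absolute LNCaP effect of the LNCaP-restricted genes was 0.35, so this bound leaves room for a PNT1a effect of similar size. CDT1, for example, had -0.44 in LNCaP and a PNT1a interval of 0.05 to 0.45, which excludes zero. The LNCaP-restricted genes were mostly falls (81 of 104), and the PNT1a-restricted ones were evenly split (699 rises and 704 falls). No LNCaP-restricted gene differed between lines by 1 or more, against 167 of the PNT1a-restricted genes. Another 50 genes called in LNCaP alone had a PNT1a interval wider than that bound and are not counted as restricted, 7 of them with a difference of 1 or more (up to 1.38). In the mirror case, 2 genes called in PNT1a alone had a wider LNCaP interval, 1 of them with a difference of 1 or more. A further 39 genes were called the same way in both lines with unequal size, and for 207 the difference was called with neither line called alone. The arrays of both lines were apart for 22 of the 91 opposite genes, 7 of them higher and 15 lower in LNCaP. Arrays were apart in both lines for 91 of all tested probes (0.884%), and since the opposite genes were chosen by the same effects, these shares are given as a description. Dim probes did not make up more of the restricted classes than of all tested genes, most of which had no called difference. In LNCaP, 26.6% of PNT1a-restricted genes had both group means within 1 log2 unit of the level, against 30.4% of all tested genes. In PNT1a, 19.2% of LNCaP-restricted genes did, against 29.6%. The classes called in both lines had smaller shares. Their LNCaP shares were 15.2% (opposite, higher in LNCaP), 18.97% (opposite, lower in LNCaP) and 23.1% (called the same way). Their PNT1a shares were 18.2%, 5.17% and 5.13%. How far low signal in the other line made a gene restricted was not tested.

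The 58 genes lower in LNCaP and higher in PNT1a included genes of DNA synthesis and cell division. RNASEH2A, the catalytic subunit of an enzyme that removes ribonucleotides from DNA, lay at 8.46 to 8.78 (median 8.72) in LNCaP HIP1-labelled arrays, against 9.12 to 9.39 (median 9.28) in LNCaP vector arrays. In PNT1a it lay at 11.01 to 11.45 (median 11.20) in HIP1-labelled arrays, against 10.56 to 10.93 (median 10.72) in vector arrays. All HIP1-labelled arrays were thus below all vector arrays in LNCaP and above all of them in PNT1a. The effects were -0.60 in LNCaP and 0.48 in PNT1a, a difference of -1.08 (95% interval -1.32 to -0.85, limma adjusted p = 1.28e-07, exact permutation p = 2.34e-06, the smallest that 853776 pairs of splits can give). E2F2, an activator of genes for S phase, lay at 7.95 to 8.37 (median 8.16) in LNCaP HIP1-labelled arrays, against 8.51 to 8.91 (median 8.74) in LNCaP vector arrays. Its PNT1a values were 9.57 to 10.22 (median 9.91) in HIP1-labelled and 9.30 to 9.75 (median 9.36) in vector arrays. E2F2 did not overlap in LNCaP and overlapped in PNT1a, where vector array 6 was the highest of its group, and the difference was -1.05 (limma adjusted p = 6.82e-06). For RFC5, a subunit of the clamp loader of replication, the effects were -0.37 in LNCaP and 0.58 in PNT1a, and its arrays were apart in both lines.

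Further genes had the same pattern. PLK4, the kinase that starts centriole duplication, fell by 0.41 in LNCaP and rose by 0.61 in PNT1a (difference -1.02, 95% interval -1.28 to -0.76, limma adjusted p = 1.42e-06). NUDT1, which clears oxidised nucleotides from the precursor pool, had effects of -0.42 in LNCaP and 0.61 in PNT1a, with arrays of both lines apart, although its other probe was called in PNT1a only. COQ2, an enzyme of coenzyme Q synthesis, had -0.38 in LNCaP and 0.52 in PNT1a, again with arrays apart in both lines. POLE2, a subunit of DNA polymerase epsilon, had -0.43 in LNCaP and 0.50 in PNT1a. The transferrin receptor TFRC, which brings iron into cells through clathrin-coated pits, lay at 10.79 to 11.37 (median 11.07) in LNCaP HIP1-labelled arrays against 11.24 to 11.60 (median 11.47) in LNCaP vector arrays. The PNT1a values were 11.49 to 12.68 (median 12.46) in HIP1-labelled arrays against 11.07 to 11.87 (median 11.78) in vector arrays. The TFRC groups overlapped in both lines, with PNT1a HIP1-labelled array 6 the lowest of its group, and the difference was -1.10 (95% interval -1.56 to -0.63, limma adjusted p = 0.000779). HMMR, a hyaluronan receptor that also acts on the spindle, had -0.40 in LNCaP and 0.44 in PNT1a, but its other tested probe did not pass the test of the difference.

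**Figure D2:**
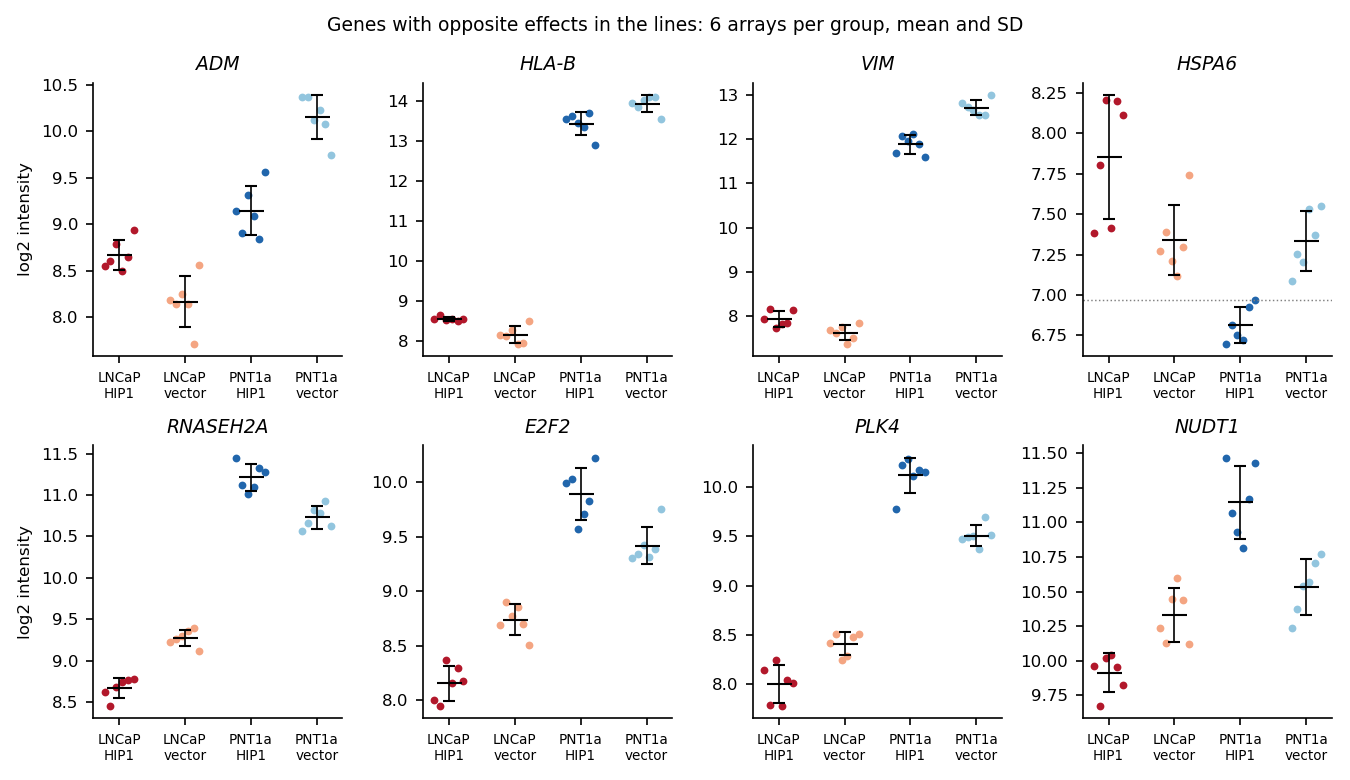
Log2 intensity of 8 genes with opposite effects, 1 panel per gene, with LNCaP left of PNT1a and HIP1-labelled left of vector arrays; points are the 6 arrays of a group, bars its mean and SD, and the dotted line the level of 6.97. The top row (ADM, HLA-B, VIM and HSPA6) is higher in LNCaP and lower in PNT1a, and in the bottom row the HIP1-labelled points of RNASEH2A and NUDT1 lie below all vector points in LNCaP and above all of them in PNT1a.

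Promoters of 3 of these cell-cycle genes are shown because they carry the element bound by E2F factors, which control genes of S phase. They run from 250 bases before to 50 after the start of the gene, 5′ to 3′ on the strand of the gene, from RefSeq on GRCh38.p14. Capitals mark TTTGGCGC or TTTCGCGC, searched on both strands with no element searched here containing another. E2F2 lies at chr1:23531184-23531483 (minus strand), POLE2 at chr14:49688165-49688464 (minus strand) and EXO1, a nuclease of mismatch repair whose fall was restricted to LNCaP, at chr1:241847954-241848253 (plus strand).
E2F2: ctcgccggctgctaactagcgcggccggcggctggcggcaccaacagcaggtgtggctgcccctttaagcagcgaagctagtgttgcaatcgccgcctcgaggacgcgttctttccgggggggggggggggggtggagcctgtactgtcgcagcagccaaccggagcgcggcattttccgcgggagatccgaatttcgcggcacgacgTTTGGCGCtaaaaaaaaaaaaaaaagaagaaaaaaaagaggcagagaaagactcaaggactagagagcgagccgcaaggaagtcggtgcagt
POLE2: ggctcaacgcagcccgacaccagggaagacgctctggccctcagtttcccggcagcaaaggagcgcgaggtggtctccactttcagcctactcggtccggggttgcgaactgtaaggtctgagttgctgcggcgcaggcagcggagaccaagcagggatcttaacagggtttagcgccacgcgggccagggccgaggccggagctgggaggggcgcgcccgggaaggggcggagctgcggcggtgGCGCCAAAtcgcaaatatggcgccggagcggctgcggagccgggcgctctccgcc
EXO1: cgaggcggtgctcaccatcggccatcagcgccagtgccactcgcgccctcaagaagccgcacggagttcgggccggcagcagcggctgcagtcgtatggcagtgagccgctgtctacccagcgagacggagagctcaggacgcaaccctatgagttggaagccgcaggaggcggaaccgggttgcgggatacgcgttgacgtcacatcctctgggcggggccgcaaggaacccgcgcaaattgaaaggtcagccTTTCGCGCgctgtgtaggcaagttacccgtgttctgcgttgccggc
The element was in 6 of 50 promoters of the genes lower in LNCaP and higher in PNT1a (12%) and in 8 of 66 promoters of falls restricted to LNCaP (12.1%). It was in 0 of 26 promoters of the genes with the other opposite pattern, in 2.86% of promoters of PNT1a-restricted rises and in 1.51% of PNT1a-restricted falls. It was in 1.18% of all 27305 promoters listed and in 2.34% of the 6234 promoters of tested genes. A match in this window describes the sequence and was not tested as a binding site.

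The 33 genes higher in LNCaP and lower in PNT1a held members of several pathways. ADM encodes adrenomedullin, a vasodilator peptide induced by low oxygen. Its log2 level was 8.49 to 8.94 (median 8.63) in LNCaP HIP1-labelled arrays, against 7.72 to 8.56 (median 8.17) in LNCaP vector arrays. In PNT1a it was 8.85 to 9.57 (median 9.12) in HIP1-labelled arrays, against 9.74 to 10.37 (median 10.17) in vector arrays. The groups overlapped by the ends of their ranges in LNCaP and did not overlap in PNT1a, and the difference of 1.51 (95% interval 1.13 to 1.89, limma adjusted p = 1.2e-06) was the largest among the 16 opposite genes named. STC2, a secreted glycoprotein of the stress response, had effects of 0.26 in LNCaP and -0.76 in PNT1a, and the glycolytic enzyme PFKP had 0.33 in LNCaP and -0.36 in PNT1a.

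HSPA6, a chaperone induced by heat and proteotoxic stress, lay at 7.38 to 8.21 (median 7.96) in LNCaP HIP1-labelled arrays, against 7.12 to 7.74 (median 7.28) in LNCaP vector arrays. In PNT1a HIP1-labelled arrays it lay below the level, at 6.70 to 6.97 (median 6.78), against 7.09 to 7.55 (median 7.31) in PNT1a vector arrays, so its fall there is at least 1.29-fold. A mean below the level was replaced by the level for every such bound. With the level in place of that mean, the difference of HSPA6 was at least 0.88 (limma adjusted p = 0.000243 on the measured values), and its probe entered the comparison in PNT1a through the vector arrays. VIM, the intermediate filament of mesenchymal cells, lay at 7.73 to 8.17 (median 7.89) in LNCaP HIP1-labelled arrays, against 7.39 to 7.85 (median 7.65) in LNCaP vector arrays. Its PNT1a values were 11.59 to 12.12 (median 11.92) in HIP1-labelled and 12.54 to 12.99 (median 12.69) in vector arrays, with no overlap. VIM thus rose by 0.31 (limma adjusted p = 0.0337) in the line where it is low and fell by 0.83 where it is abundant, and its second probe had no called rise in LNCaP while it fell in PNT1a. HLA-B, which presents peptides to T cells, had 0.40 in LNCaP and -0.50 in PNT1a, a difference of 0.90. MST1, a secreted relative of hepatocyte growth factor, had 0.35 in LNCaP and -0.61 in PNT1a, the transcription factor FOXD1 0.35 in LNCaP and -0.60 in PNT1a, and RPS29, a ribosomal protein, 0.46 in LNCaP and -0.48 in PNT1a. The 3 other tested probes of RPS29 differed between lines by -0.05 to 0.14 and were not called. Cross-matching of probes within the HLA, ribosomal protein, HSPA6 and MST1 families was not checked here.

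Both arms of an opposite call have to pass, and the count moved with the settings. It was 54 without LNCaP HIP1-labelled array 2, 59 without LNCaP HIP1-labelled array 6 or LNCaP vector array 2, 161 without both PNT1a arrays numbered 6, 42 with no filter on dim probes and 30 with the within-line effects taken from the fit over all 24 arrays. RNASEH2A, ADM, PLK4, COQ2 and E2F2 kept the call in all 36 alternatives. VIM, HMMR and RPS29 lost it in 9 of them, PFKP in 12, HSPA6 in 6 and FOXD1 in 4. NUDT1, POLE2, MST1, HLA-B and TFRC lost it in 1, the fit over all 24 arrays, where 6 of the 16 named genes kept it. Of all 91 opposite genes, 10 kept the call in every alternative that tested them. The signs of all 91 genes stayed opposite in every alternative that tested them. Opposite signs in these same arrays chose the genes, so this is a description.

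Falls restricted to LNCaP included several genes of DNA replication. ZWINT, which anchors a complex of the kinetochore, lay at 9.06 to 9.52 (median 9.21) in LNCaP HIP1-labelled arrays, against 9.71 to 10.20 (median 9.99) in LNCaP vector arrays. Its values in PNT1a were 9.75 to 10.76 (median 10.67) in HIP1-labelled and 10.22 to 10.51 (median 10.43) in vector arrays. All LNCaP HIP1-labelled arrays were below all LNCaP vector arrays, while the PNT1a groups overlapped with HIP1-labelled array 6 far below its group. The difference was -0.88 (limma adjusted p = 0.000949). GINS2, a subunit of the replicative helicase complex, had effects of -0.62 in LNCaP and 0.21 in PNT1a, MCM5, a subunit of the helicase itself, -0.66 in LNCaP and 0.06 in PNT1a, and PRIM1, the primase subunit, -0.52 in LNCaP and 0.20 in PNT1a. For a second PRIM1 probe the difference of -0.64 was not called (limma adjusted p = 0.0507). EXO1 had -0.66 in LNCaP and 0.07 in PNT1a, and CDT1, which loads the helicase onto origins, -0.44 in LNCaP and 0.25 in PNT1a. For these 6 genes the LNCaP groups did not overlap and the PNT1a groups did, in a background of 445 tested probes (4.32%) without overlap in LNCaP. The same effects chose these genes, so this is a description. With the within-line effects taken from the fit over all 24 arrays, 51 genes were restricted to LNCaP.

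Over the list of 41 tested DNA replication genes, each by its brightest probe, 33 fell in LNCaP (background 4.81%) and 8 rose in PNT1a (background 13.1%). The difference was called below zero for 24 and above zero for 0. The median effect was -0.43 in LNCaP and 0.07 in PNT1a, with a median difference of -0.51, against -0.000272 over all tested probes. Of the 24 called members, 7 were opposite (DUT, CDC45, RFC5, POLE2, RFC3, GINS4 and RPA2) and 17 restricted to LNCaP. DUT was opposite by its brightest probe, restricted to PNT1a by its most significant probe and not called by its remaining probe. Of the 36 alternatives, the opposite call was kept in 36 for RFC5, 35 for POLE2, 28 for CDC45, 25 for RFC3, 25 for GINS4 and 18 for RPA2. CDC45, which joins the helicase complex, had -0.68 in LNCaP and 0.29 in PNT1a. Among 43 genes of mitosis and the spindle, 33 likewise fell in LNCaP, but 6 fell and 3 rose in PNT1a (background 12.4% and 13.1%). For these mitosis genes the difference was called below zero for 13 and above for 2 (background 11.8% and 10.4%). Their median difference was -0.31. Without both PNT1a arrays numbered 6, 21 mitosis genes were called below zero, and without LNCaP vector arrays 3 and 4 and HIP1-labelled array 4, 8 were. E2F elements were in 10 of 35 promoters of the replication list (28.6%) and in 3 of 35 of the mitosis list (8.57%).

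Rises restricted to LNCaP numbered 23. VEGFA, a growth factor of blood vessels, had effects of 0.56 in LNCaP and -0.04 in PNT1a, a difference of 0.60 (limma adjusted p = 0.0461). ERO1A, which oxidises disulphide bonds in the endoplasmic reticulum, had 0.58 in LNCaP and 0.02 in PNT1a (limma adjusted p of the difference = 0.0369). The call was lost for VEGFA on leaving out any 1 of 17 arrays and for ERO1A any 1 of 11, with adjusted p up to 0.105 and 0.0921 over their alternatives. P4HA2, a prolyl hydroxylase of collagen, had 0.37 in LNCaP and -0.23 in PNT1a (limma adjusted p of the difference = 0.00861), and the transcription factor FOXO1 had 0.38 in LNCaP and -0.16 in PNT1a (limma adjusted p = 0.0234). SLC67A1 and C12orf76 completed the 6 largest rises, with differences of 0.57 and 0.55, and a second probe of C12orf76 was not called.

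VEGFA, ERO1A and P4HA2 belong to the list of hypoxia and glycolysis genes, whose members are switched on by HIF factors. Of its 36 tested members, 15 rose and 0 fell in LNCaP (background 3.29% and 4.81%), and 4 rose and 4 fell in PNT1a (background 13.1% and 12.4%). The difference was called above zero for 10 (background 10.4%) and below for 2, DDIT4 and SLC2A3 (background 11.8%). The list median was 0.30 in LNCaP and 0.03 in PNT1a. NDRG1, a stress-induced gene, lay at 10.21 to 10.74 (median 10.39) in LNCaP HIP1-labelled arrays against 9.19 to 10.36 (median 9.56) in LNCaP vector arrays. PNT1a values ran over 8.30 to 9.10 (median 8.63) in HIP1-labelled arrays against 8.66 to 9.47 (median 9.06) in vector arrays. Its groups overlapped in both lines, with effects of 0.77 in LNCaP and -0.46 in PNT1a and a difference of 1.22 (limma adjusted p = 0.000553). ENO2, a glycolytic enzyme that also marks neuroendocrine cells, had 0.73 in LNCaP and -0.33 in PNT1a, and it was the single neuroendocrine marker above the level in both lines. The hypoxia element ACGTGC was in 13 of 32 promoters of this list (40.6%), against 6.87% of all promoters and 9.45% of those of tested genes.

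Rises restricted to PNT1a were led by SPOCK1, a secreted proteoglycan of the matrix. In LNCaP it was close to the level, at 7.05 to 7.19 (median 7.13) in HIP1-labelled and 6.88 to 7.17 (median 6.99) in vector arrays, so a change there was hardly measurable. The PNT1a values were 11.64 to 12.16 (median 11.90) in HIP1-labelled arrays, against 7.52 to 8.64 (median 8.31) in vector arrays, without overlap. The PNT1a effect was 12.8-fold and the difference -3.57 (95% interval -3.94 to -3.19, limma adjusted p = 2.24e-13). DDIT4, which restrains mTOR when cells are stressed, lay at 11.83 to 12.16 (median 11.96) in LNCaP HIP1-labelled arrays and 11.9996 to 12.41 (median 12.21) in LNCaP vector arrays, which overlapped. Its PNT1a groups, at 11.01 to 11.69 (median 11.11) with HIP1 and 8.29 to 9.80 (median 8.998) with vector, did not overlap, and the difference was -2.43. The protease inhibitor SLPI had an effect of -0.14 in LNCaP and rose by 1.90 in PNT1a. The growth factor midkine (MDK) had 0.28 in LNCaP and 2.17 in PNT1a, the sodium channel subunit SCNN1A 0.02 in LNCaP and 1.88 in PNT1a, and the WNT antagonist NKD2 0.19 in LNCaP and 2.02 in PNT1a. For all 6 genes the PNT1a arrays did not overlap, as for 1455 probes tested (14.1%), which is a description because the same effects chose the genes.

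**Figure D3:**
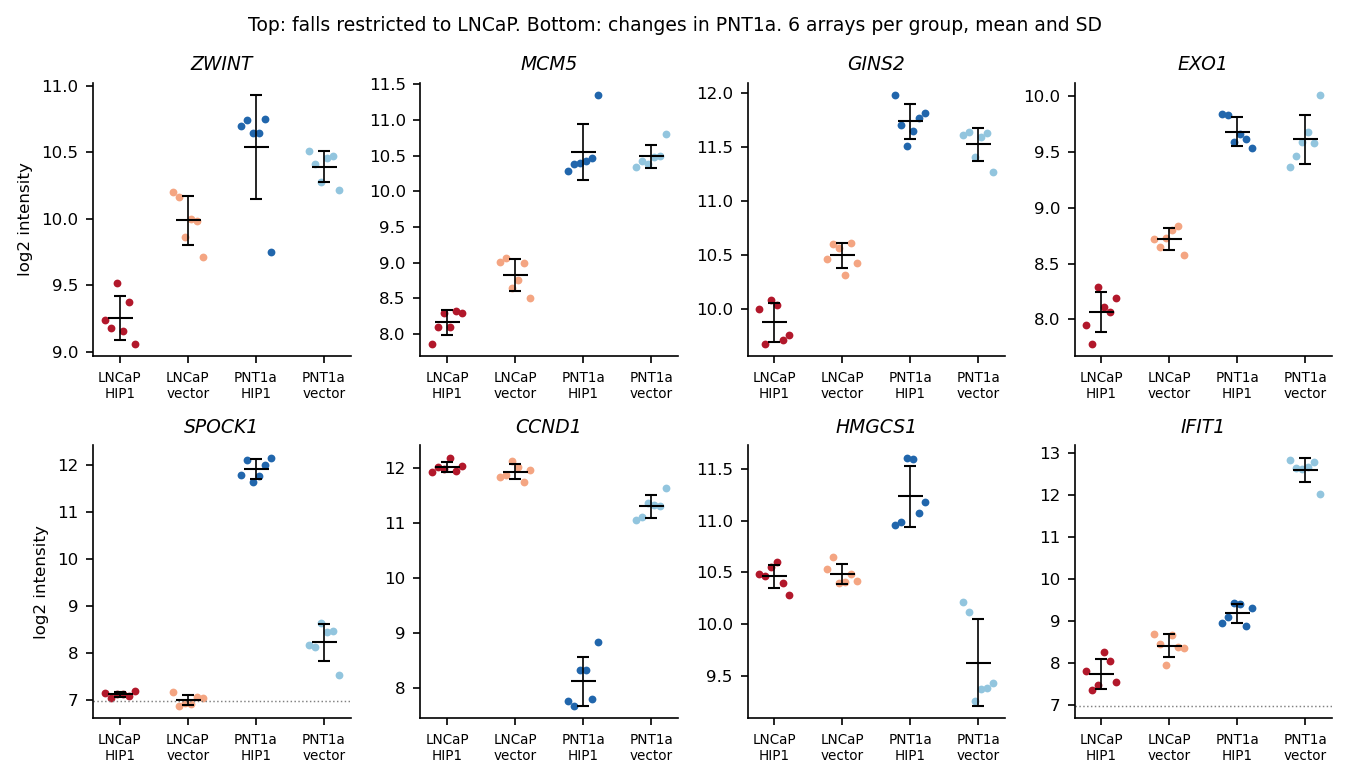
Log2 intensity of 8 genes, with LNCaP left of PNT1a and HIP1-labelled left of vector arrays; points are the 6 arrays of a group, bars its mean and SD, and the dotted line the level of 6.97. The top row (ZWINT, MCM5, GINS2 and EXO1) is lower in LNCaP HIP1-labelled arrays by under 1 log2 unit, and in the bottom row SPOCK1, CCND1 and IFIT1 differ by over 3 between the PNT1a groups.

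Among the falls restricted to PNT1a, CCND1, which encodes cyclin D1 of the G1 phase, stayed within a narrow range at a high level in LNCaP, 11.92 to 12.19 (median 12.001) in HIP1-labelled and 11.75 to 12.12 (median 11.92) in vector arrays. Its PNT1a values were 7.69 to 8.83 (median 8.07) in HIP1-labelled arrays, against 11.05 to 11.64 (median 11.32) in vector arrays. The LNCaP effect was 0.09 (95% interval -0.06 to 0.23), the fall in PNT1a was 9.02-fold without overlap, and the difference was 3.26 (limma adjusted p = 1.29e-11). NDN, a growth suppressor of the MAGE family, had an effect of 0.00376 in LNCaP. Its mean was below the level in PNT1a HIP1-labelled arrays, against 8.73 to 9.41 (median 9.12) in PNT1a vector arrays, a fall of at least 4.29-fold. The NDN probe passed the filter in PNT1a on its vector arrays. BEX1 fell by 3.37 in PNT1a by 1 probe, while its other tested probe had an effect of -0.14 and no call. HERC6 and HELZ2, both interferon-induced, had 0.04 and 0.25 in LNCaP and -2.80 and -2.50 in PNT1a. Without both PNT1a arrays numbered 6, the number of PNT1a-restricted genes was 2241.

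Interferon-stimulated genes, which cells switch on in defence against viruses, fell in PNT1a by far more than in LNCaP. Of 27 tested members, the difference was called above zero for 24 and below for 0 (background 10.4% and 11.8%), with a median of 1.29. In LNCaP 8 fell and 0 rose (median -0.08, background for falls 4.81%). In PNT1a 26 fell and 0 rose (median -1.37, background for falls 12.4%). By class, 16 were restricted to PNT1a and 7 were called the same way in both lines with unequal size. Another 17 of the 45 with a probe were above the level in PNT1a alone and could not enter. A member close to the level in LNCaP had little room for a measured fall there. How far this limits the LNCaP falls and the count of 16 restricted members was not tested. IFIT1, which binds viral RNA, lay at 7.34 to 8.25 (median 7.67) in LNCaP HIP1-labelled arrays, against 7.94 to 8.68 (median 8.41) in LNCaP vector arrays. In PNT1a it lay at 8.88 to 9.43 (median 9.18) in HIP1-labelled arrays, against 12.01 to 12.83 (median 12.65) in vector arrays. The LNCaP groups overlapped and the PNT1a groups did not, and the effects of -0.67 in LNCaP and -3.42 in PNT1a differed by 2.75 (95% interval 2.29 to 3.20, limma adjusted p = 1.59e-09). IFI27, another gene induced by interferon, had -0.54 in LNCaP and -3.03 in PNT1a. OAS3, which makes an activator of RNA decay from double-stranded RNA, fell at least 1.16-fold in LNCaP and had an effect of -2.32 in PNT1a. The LNCaP HIP1-labelled mean of OAS3 was below the level. Its LNCaP vector values were close to the level, at 7.40 on array 2 and at most 7.17 on the others, so its LNCaP call rests on values near the level. IFI6, a mitochondrial survival factor, had -0.47 in LNCaP (limma adjusted p = 0.0986) and -4.06 in PNT1a, a difference of 3.59. A second IFI6 probe was called in both lines, with -0.46 in LNCaP (limma adjusted p = 0.0467) and -2.32 in PNT1a, a difference of 1.85.

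The promoters of 3 of these genes are printed because they hold the interferon-stimulated response element, given in capitals (a pair of GAAA with 2 bases of any kind between them, on either strand), in the same window and build as above. IFI6 lies at chr1:27672143-27672442 (minus strand), IFIT1 at chr10:89392373-89392672 (plus strand) and OAS3 at chr12:112938224-112938523 (plus strand).
IFI6: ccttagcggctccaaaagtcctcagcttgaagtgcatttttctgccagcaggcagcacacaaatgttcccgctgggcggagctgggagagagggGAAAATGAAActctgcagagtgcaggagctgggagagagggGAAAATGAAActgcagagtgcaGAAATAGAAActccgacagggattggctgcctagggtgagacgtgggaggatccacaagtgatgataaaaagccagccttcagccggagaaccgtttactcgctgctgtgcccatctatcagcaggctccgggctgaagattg
IFIT1: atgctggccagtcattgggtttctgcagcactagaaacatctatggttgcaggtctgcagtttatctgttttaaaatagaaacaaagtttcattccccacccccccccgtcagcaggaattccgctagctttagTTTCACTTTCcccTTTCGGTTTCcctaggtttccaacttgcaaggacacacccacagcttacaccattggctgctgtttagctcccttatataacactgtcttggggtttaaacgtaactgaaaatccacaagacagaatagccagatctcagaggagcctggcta
OAS3: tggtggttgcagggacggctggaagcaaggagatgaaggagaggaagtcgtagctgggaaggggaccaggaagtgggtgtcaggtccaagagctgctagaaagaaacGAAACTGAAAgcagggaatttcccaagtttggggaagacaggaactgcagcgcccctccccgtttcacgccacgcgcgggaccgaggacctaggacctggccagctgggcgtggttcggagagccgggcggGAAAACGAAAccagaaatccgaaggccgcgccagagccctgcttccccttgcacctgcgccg
The element was in 16 of 22 promoters of the tested list (72.7%) and in 8 of 11 promoters of the MHC class I list (72.7%), against 3.65% of all promoters and 2.92% of those of tested genes. It was in 5.52% of promoters of PNT1a-restricted falls, 2.33% of PNT1a-restricted rises, and 0 of 50 promoters of genes lower in LNCaP and higher in PNT1a.

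MHC class I and peptide loading genes did not share the size of that shift. Of 12 tested members, the difference was called above zero for 3 and below for 1 (background 10.4% and 11.8%), with a median of 0.27. HLA-B is described above, the peptide transporter TAP2 had effects of -0.07 in LNCaP and -0.68 in PNT1a, and the immunoproteasome subunit PSMB10 was called the other way, with -0.26 in LNCaP and 0.47 in PNT1a. With both PNT1a arrays numbered 6 left out, 5 members were called above zero.

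Genes of sterol synthesis parted between the lines. Of 17 tested members, 0 rose and 4 fell in LNCaP (median -0.12, background for falls 4.81%), and 11 rose and 0 fell in PNT1a (median 0.54, background for rises 13.1%). Their difference was called below zero for 12 (background 11.8%) and above for 0, with a median of -0.66. HMGCS1, which makes the precursor of mevalonate, lay at 10.28 to 10.60 (median 10.47) in LNCaP HIP1-labelled and 10.40 to 10.65 (median 10.45) in LNCaP vector arrays. For PNT1a the values were 10.96 to 11.61 (median 11.13) in HIP1-labelled and 9.25 to 10.21 (median 9.41) in vector arrays. The LNCaP groups overlapped, the PNT1a groups did not, and the difference was -1.63 (95% interval -2.05 to -1.205, limma adjusted p = 1.83e-06). MVK, the kinase of mevalonate, and NSDHL, which acts late in the pathway, were opposite, with -0.28 and -0.25 in LNCaP and 0.56 and 0.38 in PNT1a. INSIG1, a brake on the pathway, had 0.01 in LNCaP and 1.63 in PNT1a, and its second tested probe was not called. Of 12 fatty acid synthesis genes, 7 were called below zero and 0 above. The acetyl-CoA carboxylase ACACA had 0.06 in LNCaP and 1.02 in PNT1a and the fatty acid synthase FASN -0.02 in LNCaP and 0.84 in PNT1a, while the desaturase SCD had 0.37 in LNCaP and 1.78 in PNT1a. A second ACACA probe was called higher in both lines, with 0.19 in LNCaP and 0.98 in PNT1a. Without LNCaP vector arrays 3 and 4 and HIP1-labelled array 4, 4 fatty acid genes were called below zero. The sterol element TCACCCCAC was in 0 of 15 promoters of the sterol list, which says only that these letters are not in the window.

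Stress genes did not move as a block. The backgrounds of their counts of called differences are 10.4% above zero and 11.8% below. Of 40 ATF4 and integrated stress response genes, the difference was called above zero for 11 and below for 3. Their median effects were 0.10 in LNCaP and -0.27 in PNT1a. In LNCaP 8 rose (background 3.29%), and in PNT1a 7 fell and 4 rose (background 12.4% and 13.1%). Without both PNT1a arrays numbered 6, 19 were called above zero, and without LNCaP vector arrays 3 and 4 and HIP1-labelled array 4, 7 were. The tryptophan tRNA synthetase WARS1, which interferon also induces, had 0.06 in LNCaP and -1.40 in PNT1a (difference 1.45), and DDIT4, a member of this list too, was called the other way. Of 15 heat shock protein genes, 4 were called above zero and 1 below. The chaperone HSPA1B had 0.46 in LNCaP and -0.42 in PNT1a, the co-chaperone DNAJA1 0.03 in LNCaP and -0.76 in PNT1a, and the small heat shock protein HSPB1 -0.03 in LNCaP and 0.61 in PNT1a.

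**Figure D4:**
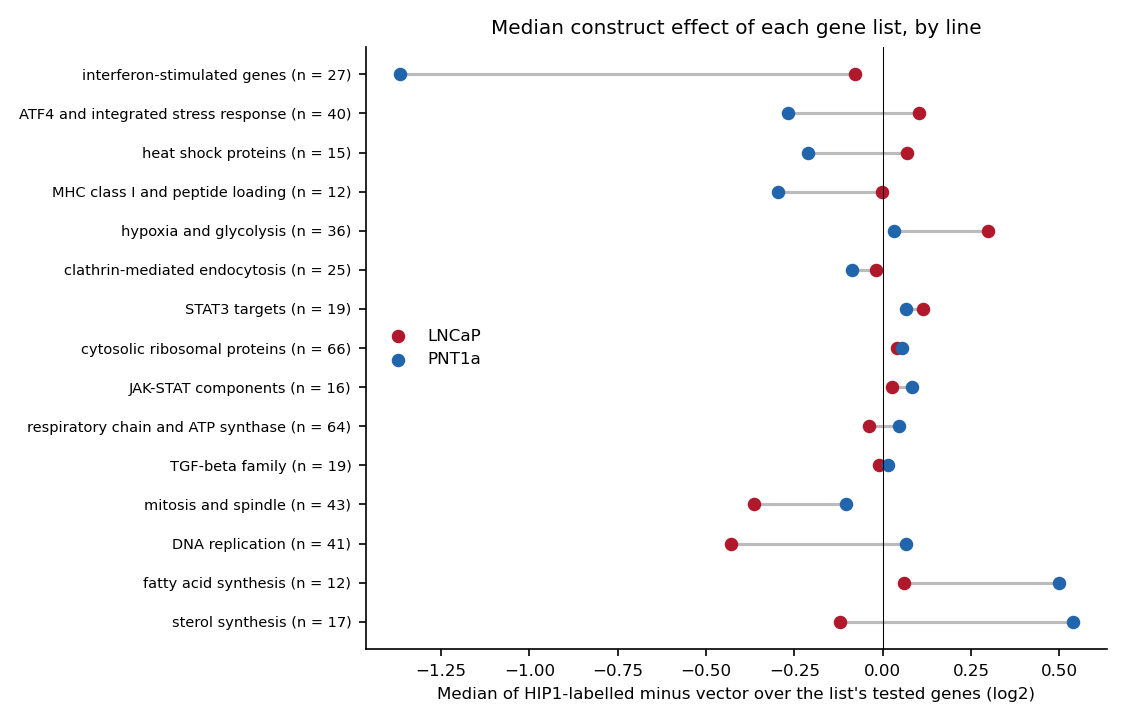
Median construct effect (log2, HIP1-labelled minus vector) over the tested genes of each list, with LNCaP in red, PNT1a in blue, the number of tested genes beside each list and lists ordered by their median difference. The points lie farthest apart for the interferon-stimulated genes (-0.08 in LNCaP and -1.37 in PNT1a), and DNA replication is low in LNCaP at -0.43 and near zero in PNT1a at 0.07.

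The lists nearest to the named pathway of the study had median differences between -0.01 and 0.09. Of 19 tested STAT3 target genes, 3 were called above zero and 4 below, with a median difference of 0.01, and 9 further targets were above the level in PNT1a alone. CCND1, a member, was called above zero, while the transcription factor CEBPD (-0.00144 in LNCaP and 1.201 in PNT1a) and the coactivator BCL3 (0.15 in LNCaP and 0.87 in PNT1a) were called below. Of 16 JAK-STAT components, 2 were called above zero, the phosphatases PTPN1 (-0.08 in LNCaP and -0.67 in PNT1a) and PTPN6 (0.01 in LNCaP and -0.45 in PNT1a), and 0 below, with a median of -0.01. The backgrounds of these counts are 10.4% above and 11.8% below. Of 25 genes of clathrin-mediated endocytosis, the process HIP1 serves, 4 were called above zero and 1 below, with a median of 0.09. The clathrin light chain CLTA had -0.04 in LNCaP and -0.65 in PNT1a, the adaptor EPS15L1 -0.05 in LNCaP and -0.45 in PNT1a, and beta-arrestin ARRB1, called below zero, -0.03 in LNCaP and 0.86 in PNT1a. Without LNCaP vector arrays 3 and 4 and HIP1-labelled array 4, 2 clathrin genes were called above zero.

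Of 19 TGF-beta family genes, 7 were called below zero and 2 above. Over all tested probes, the difference was called above zero for 10.4% and below for 11.8%. ID1, a target of BMP signalling, had -0.45 in LNCaP and 0.73 in PNT1a, and the inhibitory SMAD6 had -0.06 in LNCaP and -1.31 in PNT1a, called the other way. Matrix, contractile and migration genes had 4 above and 2 below of 14, among them the actin-binding TAGLN (0.15 in LNCaP and -1.59 in PNT1a) and the collagen gene COL12A1 (-0.12 in LNCaP and 1.17 in PNT1a). ACTA2, smooth muscle actin, had 0.14 in LNCaP and -1.28 in PNT1a and was the single fibroblast marker tested, and the part of fibroblast-like cells in these values was not tested. Of 8 epithelial adhesion genes 3 were above and 1 below, with JUP, a plaque protein of junctions, at -0.00311 in LNCaP and -1.17 in PNT1a. DSP, of desmosomes, was at 0.27 in LNCaP and at least 1.44-fold lower in PNT1a, where its HIP1-labelled mean was below the level. The EGF receptor ligand HBEGF had 0.07 in LNCaP and -1.94 in PNT1a, and the receptor FGFR3 -0.07 in LNCaP and -1.60 in PNT1a. Large housekeeping lists had medians near zero, with 4 above and 3 below of 66 cytosolic ribosomal protein genes (median difference -0.00210) and 6 above and 6 below of 64 genes of the respiratory chain and ATP synthase (median -0.05). With both PNT1a arrays numbered 6 left out, 8 ribosomal protein genes were above and 12 below, 17 respiratory chain genes were below, and 6 matrix genes were above.

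Smaller lists held single genes with sizeable differences. Their counts stand beside shares over all tested probes of 10.4% above zero and 11.8% below. Of 15 tested p53 targets, 4 were called above zero and 0 below, with SERTAD1, a regulator of cyclin-dependent kinase activity, at 0.01 in LNCaP and -0.97 in PNT1a (95% interval of the difference 0.44 to 1.504, limma adjusted p = 0.00734). Of 10 cytokine and NF-kappaB genes, 3 were above and 2 below. IL18, an interleukin, had 0.08 in LNCaP and -1.08 in PNT1a, NFKBIA, the inhibitor of NF-kappaB, had 0.09 in LNCaP and -0.63 in PNT1a, and SOD2, the mitochondrial superoxide dismutase, was called the other way with -0.21 in LNCaP and 1.26 in PNT1a. SOD2 lay at 8.50 to 8.80 (median 8.64) in LNCaP HIP1-labelled arrays, against 8.63 to 9.05 (median 8.84) in LNCaP vector arrays. Its PNT1a values were 11.61 to 12.65 (median 11.99) in HIP1-labelled and 9.50 to 11.44 (median 10.85) in vector arrays, where the lowest vector value was that of array 1. The groups overlapped in LNCaP and did not in PNT1a, and both tested SOD2 probes were called.

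The shares over all tested probes were 10.4% above zero and 11.8% below, and list counts near these say little about a list. Of 12 tested histone genes, 3 were called above zero and 4 below. H2BC12, a gene of core histone H2B, had -0.01 in LNCaP and -1.25 in PNT1a, H2AJ, a variant of histone H2A, 0.09 in LNCaP and -0.96 in PNT1a, and H4C3, of histone H4, -0.24 in LNCaP and 0.75 in PNT1a. Cross-matching within the histone family was not checked here. Of 15 metallothionein and zinc transporter genes, 1 was above and 2 below. MT1F, which binds zinc and other metals, had -0.65 in LNCaP (limma adjusted p = 0.000494) and 0.73 in PNT1a (limma adjusted p = 0.147), a difference of -1.38. Of 14 androgen-regulated and luminal genes, 2 were above and 4 below. FOXA1, a pioneer factor of the androgen receptor, had 0.11 in LNCaP and was at least 1.27-fold lower in PNT1a, where its HIP1-labelled arrays were below the level. The FOXA1 probe thus entered the comparison in PNT1a through the vector arrays. PDIA5, an isomerase of disulphide bonds, had 0.14 in LNCaP and 0.80 in PNT1a. Of 23 genes of endoplasmic reticulum chaperones and the unfolded protein response, 1 was above and 2 below, with the co-chaperone DNAJB9 at 0.42 in LNCaP and 1.18 in PNT1a and DERL1, which acts in export of misfolded proteins, at 0.15 in LNCaP and -0.72 in PNT1a. Of 18 ERK feedback and immediate early genes, 2 were above and 3 below, with SPRY1, an inhibitor of receptor tyrosine kinase signalling, at -0.34 in LNCaP and 0.86 in PNT1a. The shortest lists were 9 receptor tyrosine kinases with 1 above and 0 below, 6 integrins with 1 above and 1 below, 5 S100 and acute-phase genes with 2 above and 0 below, 5 protease and inhibitor genes with 0 called and 3 basal genes with 1 below. With both PNT1a arrays numbered 6 left out, 4 integrins were called below zero, 7 p53 targets and 5 histone genes above, and 4 metallothionein and 4 endoplasmic reticulum genes below. Without LNCaP vector arrays 3 and 4 and HIP1-labelled array 4, 2 p53 targets were above and 1 histone gene below.

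Along some chromosomes, neighbouring genes shared the sign of their PNT1a effect. With 7412 tested genes ordered by position and the construct effect smoothed by a running median over 25 genes, 10 stretches on 5 chromosomes passed 0.3 in PNT1a in at least 10 neighbouring windows. They hold 451 genes (6.08%). In LNCaP 0 stretches did, and its running medians stayed between -0.12 and 0.12. The strongest stretch, on chromosome 10 from ZCCHC24 to STN1, holds 88 genes with a median effect of 0.00 in LNCaP and -0.70 in PNT1a. In it 83 of 88 genes were lower in PNT1a HIP1-labelled arrays, and 67 (76.1%) had a called difference above zero. The median of the stretch over genes lay between -0.74 and -0.66 in the 6 PNT1a HIP1-labelled arrays and between -0.02 and 0.04 in the 6 PNT1a vector arrays, with no overlap. The IFIT1 locus lies inside it, as does ACTA2.

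The other stretches were of both signs. On chromosome 8 the 48 genes from LY96 to ATP6V1C1 had a median PNT1a effect of 0.53 and the 34 from MED30 to THEM6 had -0.45. On chromosome 20 the median was 0.44 for 44 genes from DNMT3B to TTI1, -0.47 for 39 genes from TOMM34 to KCNG1 and -0.47 for 44 genes from RAE1 to PCMTD2. Chromosome 16 had 45 genes at 0.38 (LUC7L to NTHL1), and chromosome 9 had 3 stretches of 73, 23 and 13 genes at -0.34, -0.39 and -0.33. Of the PNT1a-restricted falls 24.1% lay in such stretches and of the rises 9.76%, against 3.53% of genes without a called difference. The same PNT1a effects chose the stretches, so these shares are a description. The LNCaP-restricted class had 1 of 101 ordered genes in them, the DNA replication list 0 of 41 and the interferon list 2 of 27. NDRG1, HELZ2, DNAJA1, DERL1, PTPN1 and CLTA lie in stretches of lower PNT1a effects and had effects of that sign. SCD and SLPI lie in such stretches too, but had PNT1a effects of the other sign. Stretches were looked for after the other results were known. DNA copy number was not analysed here, and its part in these values was not tested.

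**Figure D5:**
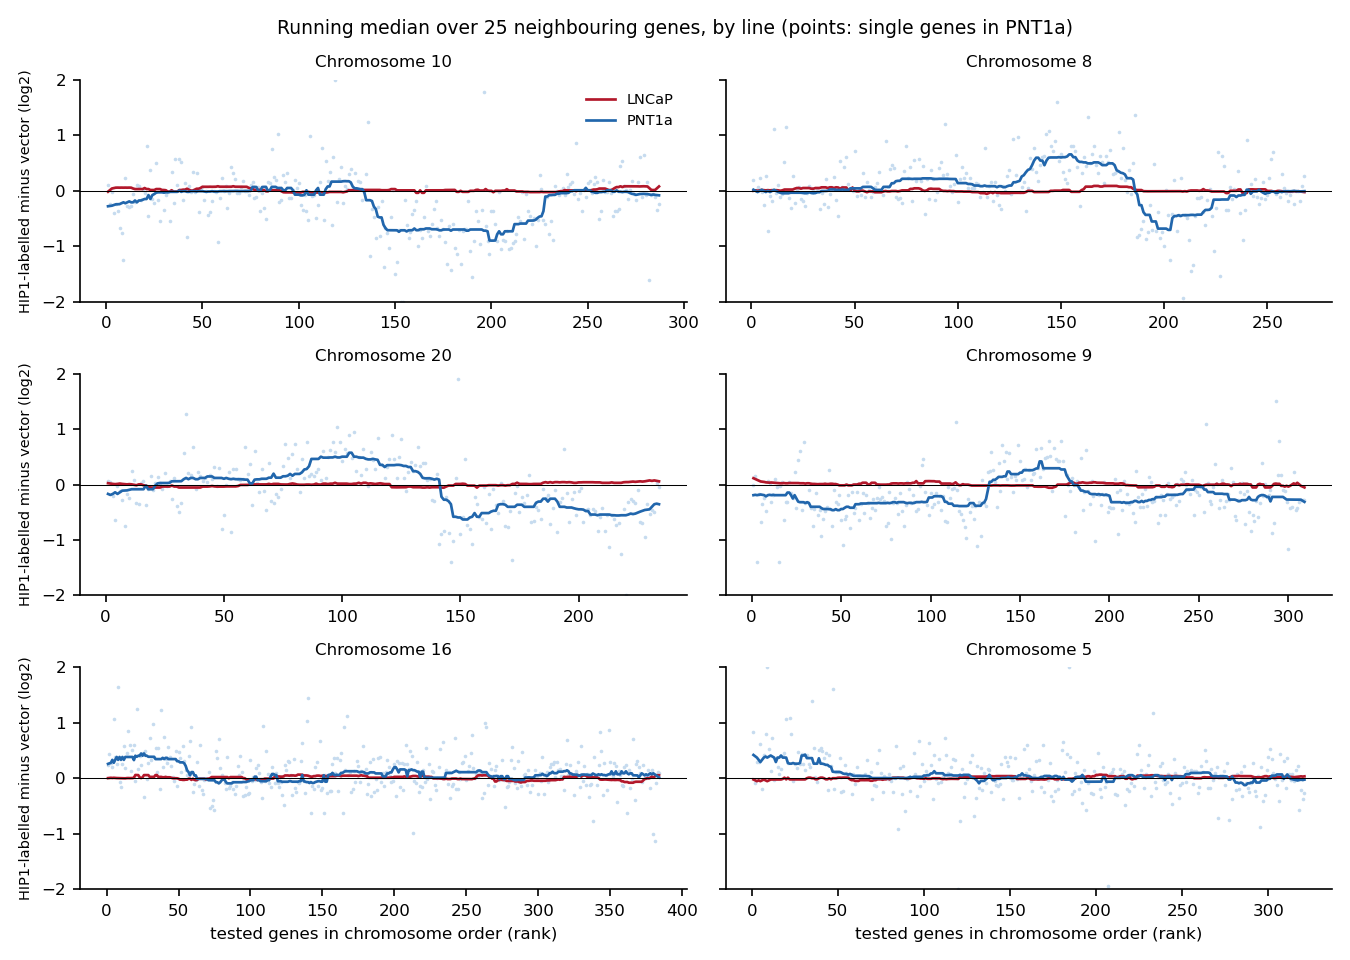
Running median over 25 genes of the construct effect (log2, HIP1-labelled minus vector) in LNCaP (red) and PNT1a (blue) along 6 chromosomes, with genes in order of position on the horizontal axis and single PNT1a genes as points (beyond 2 or -2 drawn at 2 or -2). The LNCaP line stays between -0.12 and 0.12, while the PNT1a line reaches -0.90 on chromosome 10; chromosome 5 holds no stretch by the rule used.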

How the data were processed

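RNA from 24 cell cultures was hybridised to Illumina arrays, 6 per group, each labelled a biological replicate. The authors deposited log2 intensities of 48803 probes with 0 missing values, and the 24 columns, once sorted, are within 0.052 (log2) of each other and so share a distribution. The sources used here do not name the normalization. Another deposited table, of raw intensity, has 6 columns whose names match the labels, used only to check the scale, and 18 that were not used. Every array had a median of 6.56 and 12099 to 12107 probes above the level of 6.97, and the number of arrays limits the precision.

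Group means were fitted with limma 3.58.1 (R 4.3.3) over all 24 arrays for the difference between lines, and within each line alone for the effects, over the same 10299 probes and without covariates. Two-sided moderated p-values had a Benjamini-Hochberg adjustment over all tested probes, with calls at 0.05. The exact permutation test used every pair of 6-against-6 splits of the lines. It shuffled the construct labels within each line, so it tested for no effect in either line and not for equal effects in both. Where the lines had effects of their own, its p-value is not exact for the difference. Detection p-values were not filled, so the filter on dim probes used the signal. The fit was tried on simulated data, and the outcome is not reported here.

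Classes count a gene by its most significant probe, and lists (33, with 1005 genes) and chromosome order by the brightest. Named are HIP1, STAT3 and GDF15, the 8 opposite genes in each direction with the largest smaller effect, the 6 largest rises and falls restricted to each line, the 3 largest differences called the same way, and up to 4 called members of a list. Of the falls restricted to PNT1a, 1 is not reported here. The lists, rules and comparisons were chosen with earlier results of these data known, and MVK, NSDHL and the opposite replication genes were named after their values were seen. Gene symbols came from the probe annotation (1266 tested probes have no single symbol). Promoters are those of RefSeq on GRCh38.p14, found for 6234 tested genes. Most same-numbered arrays did not share their deviations from the group means (correlations of -0.24 to 0.35 in LNCaP and -0.02 to 0.75 in PNT1a, 2 of 6 over 0.1 in each). The PNT1a arrays numbered 6 did (0.75), and each matched the other best. The main fit did not pair arrays by replicate number. Alternatives were other filters, spreads and scalings, blocks, a residual component, and left-out arrays.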

Additional observations from a re-analysis of the deposited data

Results flagged for a closer look

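The difference between the lines is itself the comparison reported, so the results that stand out by it are its counts and the opposite genes. They are 2288 probes with a called difference, 91 opposite genes, 104 genes restricted to LNCaP and 1403 restricted to PNT1a. By gene, the LNCaP effect minus the PNT1a effect (log2) was HSPA6 1.03, ADM 1.51, RPS29 0.93, HLA-B 0.90, MST1 0.96, FOXD1 0.94, PFKP 0.69 and VIM 1.14, and RNASEH2A -1.08, E2F2 -1.05, POLE2 -0.93, NUDT1 -1.03, PLK4 -1.02, HMMR -0.84, TFRC -1.10 and COQ2 -0.90. The PNT1a HIP1-labelled mean of HSPA6 lay below the level of detection, so its value rests on a bound and is not exact.

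Single arrays lay far from the other 5 of their group, by Dixon's criterion at the 95% level, in 57 of 372 groups of the 93 genes whose values the text may print, and chance flags about 1 in 20 groups. PNT1a HIP1-labelled array 6 accounts for 18 of them and PNT1a vector array 6 for 17, the arrays that also stood apart over all probes. Values below are log2 intensities. LNCaP HIP1-labelled array 2 was the lowest for CDC45 (8.80), CENPM (9.37) and FGFR3 (6.85). LNCaP HIP1-labelled array 3 was the lowest for STC2 (10.28). LNCaP HIP1-labelled array 4 was the lowest for STAT3 (7.80), FASN (13.45) and HSPA1B (11.81). LNCaP HIP1-labelled array 5 was the highest for ACTA2 (9.01). LNCaP HIP1-labelled array 6 was the highest for ERO1A (9.41). LNCaP vector array 2 was the highest for OAS3 (7.40) and PTPN6 (8.66). LNCaP vector array 3 was the highest for NKD2 (8.11) and the lowest for TAP2 (7.13). LNCaP vector array 6 was the highest for P4HA2 (9.32), SCNN1A (10.81) and DSP (8.97).

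PNT1a HIP1-labelled array 1 was the lowest for STAT3 (8.37) and PLK4 (9.78). PNT1a HIP1-labelled array 3 was the highest for HMMR (9.55). PNT1a HIP1-labelled array 6 was the far highest of its group for GDF15 (10.76), SLC67A1 (7.55), MCM5 (11.35), NKD2 (9.90), TAP2 (9.02), STC2 (11.62), HSPD1 (12.52) and JUP (8.31). It was the far lowest for HIP1 (7.10), FOXD1 (7.86), TFRC (11.49), P4HA2 (8.78), ZWINT (9.75), PRIM1 (8.57), MDK (10.37), HERC6 (7.76), INSIG1 (9.72) and MSMO1 (8.65). PNT1a vector array 1 was the lowest for HELZ2 (12.04) and HSPB1 (11.43). PNT1a vector array 2 was the lowest for HSPA1B (11.42). PNT1a vector array 6 was the far highest of its group for E2F2 (9.75), MCM5 (10.80), CLTA (10.85) and ENO2 (10.15). It was the far lowest for RPS29 (8.61), MDK (8.19), SCNN1A (6.85), BEX1 (11.42), HERC6 (10.46), IFIT1 (12.01), IFI6 (12.07), PSMB10 (10.43), FADS1 (8.75), CEBPD (9.45), BCL3 (8.55), COL12A1 (7.66) and SPRY1 (6.72).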

How the results depend on the processing

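The count of 2288 probes was 3785 with the first residual component of each line as a covariate, 3631 without both PNT1a arrays numbered 6 and 250 for differences of at least 1. Leaving out 1 array at a time gave 2064 to 3237. The 91 opposite genes became 42 with no filter, 207 with the residual component, 161 without both PNT1a arrays numbered 6, 30 with within-line effects from the fit over all 24 arrays, and 54 to 132 on leaving out 1 array. LNCaP-restricted genes (104) were 222 with the residual component, 51 with the fit over all 24 arrays and 70 to 138 on leaving out 1 array. PNT1a-restricted genes (1403) were 2263 with the residual component, 2241 without both PNT1a arrays numbered 6 and 1229 to 1983 on leaving out 1 array. Chosen after seeing the data, counts outside the chromosome stretches were 84 opposite and 1172 PNT1a-restricted genes, and with genes called in both lines included 117 were restricted to LNCaP and 1492 to PNT1a. With the replicate block within each line 3058 probes were called, and 2421 with the block shared over both lines. The cause of these moves was not tested.

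Without the filter the lists held more genes, and 2746 of 48803 probes were called, against 2288 of 10299 with it. Called above zero without it were 39 of 45 interferon-stimulated genes (24 of 27 with it), 6 of 44 ATF4 genes (11 of 40) and 4 of 30 JAK-STAT components (2 of 16). Below zero were 9 of 36 STAT3 targets (4 of 19 with it). The medians without it were 0.0245 for MHC class I (0.27 with it) and -0.49 for sterol synthesis (-0.66). Without both PNT1a arrays numbered 6, 5 MHC class I genes and 19 ATF4 genes were above zero, 21 mitosis genes were below, and the JAK-STAT median was 0.0888. Without LNCaP vector arrays 3 and 4 and HIP1-labelled array 4, 8 mitosis and 4 fatty acid genes were below zero, and 7 ATF4 and 2 clathrin genes above. Of 131 named results, 127 were called, 114 of them in all 35 alternatives run, and 13 lost the call in at least 1. STAT3, not called, changed sign, within -0.0610 to 0.194 on leaving out 1 array, at -0.0257 without those 3 LNCaP arrays and -0.0610, -0.0499, -0.00695 and -0.0375 without LNCaP vector array 4, PNT1a HIP1-labelled array 1, PNT1a vector array 4 and PNT1a vector array 5. Windows of 15 and 41 genes gave 16 and 9 PNT1a stretches with 452 and 450 genes, 11 with 479 genes without both PNT1a arrays numbered 6, and 0 in LNCaP at each window.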
